A study of Bos taurus with 14 samples.

Results

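Transcripts of 10 immediate early response genes, FOS, FOSB, JUN, JUNB, EGR1, ATF3, IER2, MYC, NR4A1 and NR4A3, were followed in back muscle (longissimus dorsi) taken from 14 heifers. They were chosen by name from the 18078 gene rows of the count table, where each name stood on a row, and all 10 were among the 12187 genes that passed the filter on low counts. The animals were slaughtered at postnatal day 485. Of these, 7 were born to control dams that received 100% of their nutrient requirement, and 7 to restricted dams that received less from day 158 of gestation until birth. The study's design text gives the restricted level as 70% and the treatment protocol gives it as 50%. From birth all 14 were kept alike, with feed freely available from day 301. Each library is 1 animal and 1 muscle, and animals are numbered within their group only to name them. The sources used here give neither the breed nor the time from slaughter to sampling.

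Immediate early genes are transcribed within minutes of a stimulus, before any protein has to be made, because the factors that switch them on are already present in the cell. Kinases of the MAPK family act through serum response factor and its ELK partners, and calcium and cyclic AMP act through CREB. The products are mostly transcription factors, and their mRNAs are short-lived. In skeletal muscle they are known to respond to contraction, stretch, injury, hormones and the handling of tissue. FOS and FOSB proteins pair with JUN or JUNB to form the AP-1 factor, ATF3 joins the same network as a stress-induced partner, EGR1 is a zinc finger factor, and IER2 is a small nuclear protein. MYC drives growth programmes. NR4A1 and NR4A3 are orphan nuclear receptors that regulate glucose and fatty acid use in muscle.

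Libraries held between 13631018 and 17325779 counts. The tissue label was checked against its markers: 9 of 10 skeletal muscle fibre markers were tested, with a summed level of 151600 to 199400 CPM (counts scaled to library size) in controls and 176400 to 207700 in restricted animals. Smooth muscle and pericyte markers (12 of 12 tested) summed to 4321 to 6133 and 3805 to 8450 CPM, endothelial markers (12 of 12) to 242.2 to 382.0 and 250.0 to 333.9, and macrophage markers (10 of 12) to 14.47 to 30.67 and 17.54 to 38.54. Most of the smooth muscle and pericyte sum was DES, which muscle fibres also make, with means of 4706 CPM in controls and 5032 in restricted animals. That sum therefore does not measure smooth muscle. T and NK cell markers (5 of 10) stayed at or below 9.734 CPM, and 8 of 10 neutrophil and blood markers were too low to be tested, with CXCR2 at 0 to 2 reads per library. Standing apart from the rest were 3 animals on a list of interferon response genes, of which 14 of 16 were tested: the mean log2 CPM was 4.02 in control 7, 3.54 in restricted 4 and 4.93 in restricted 7, against 0.66 to 2.22 in the other 11.

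Per unit of length, FOS was the most abundant of the 10 and NR4A3 the least. On the RPKM scale, CPM divided by the gene's length in kilobases, means over 14 animals were 109.1 ± 55.69 (SD) for FOS, 80.59 ± 13.79 for JUN and 47.02 ± 14.89 for NR4A1. FOS was above JUN in only 9 of 14 animals, so their order did not exceed the spread, whereas JUN was above NR4A1 in 14 of 14. JUNB followed at 16.38 ± 5.902, and its range did not overlap with that of NR4A1. ATF3 at 14.47 ± 16.62 and EGR1 at 9.884 ± 5.414 were not separable, ATF3 being the higher in 5 of 14 animals, and JUNB was above ATF3 in 11. IER2 at 5.676 ± 1.601, FOSB at 3.289 ± 1.763, MYC at 1.64 ± 0.6105 and NR4A3 at 0.7783 ± 1.175 closed the order. EGR1 was above IER2 in 11 animals, IER2 above FOSB in 12, FOSB above MYC in 10 and MYC above NR4A3 in 13, and all 4 of these neighbouring ranges overlapped. The 10 thus covered both a highly expressed end, with FOS at the 96.1st percentile of genes tested, and a near-silent end, with NR4A3 at the 13.1st.

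The span between animals was wide and differed greatly between the genes. The biological coefficient of variation, the part of the spread between animals that counting error does not account for, was above the all-gene median of 0.156 for all 10, and 7 of the 10 lay above the 90th percentile. NR4A3 led with 1.043 (99.8th percentile), and its highest animal had 39.79 times the CPM of its lowest. ATF3, the stress-induced AP-1 partner, followed with 0.8526 (99.6th percentile) and a 24.24-fold span. The variation of FOSB was 0.5079, of EGR1 0.4994 and of FOS 0.4405, all at or above the 97.1st percentile, with spans of 5.976-fold, 10.87-fold and 6.485-fold. JUNB at 0.3409 and MYC at 0.3188 came next, then NR4A1 at 0.2771 and IER2 at 0.2572. JUN was the exception: at 0.1654 it stood at the 55.1st percentile, and its highest animal exceeded its lowest only 1.761-fold. The reads behind these values were few for NR4A3, with 6 to 209 per library, whereas ATF3 had at least 76 and FOS at least 1201.

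**Figure D1:**
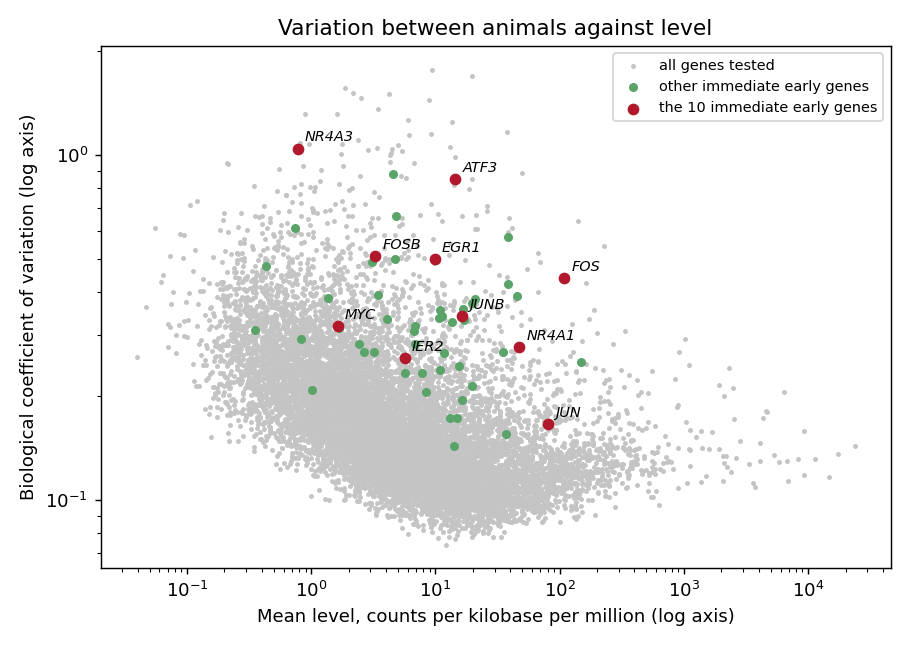
Biological coefficient of variation of each gene tested (vertical, log axis) against its mean level in RPKM (horizontal, log axis), for all 12187 genes in grey, 44 other immediate early genes in green and the 10 genes in red. NR4A3 at 1.043 and ATF3 at 0.8526 lie at the top, whereas JUN at 0.1654 lies within the grey cloud.

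The main comparison asked whether these genes differed between the daughters of restricted and control dams, and none was called. In edgeR's quasi-likelihood test over all 12187 genes, 0 of the 10 passed a Benjamini-Hochberg adjusted p of 0.05, where 0.0% of all genes did, and 0 had an unadjusted p under 0.05, where 4.25% of all genes (518) did. The ranges of the 2 groups overlapped for all 10. This was not counted over all genes, so it does not set these 10 apart. Their median log2 difference, restricted minus control, was -0.012, beside -0.001 over all genes, and 4 of the 10 were positive. Intervals for 7 of them excluded a 2-fold difference in either direction, and those of JUN, JUNB, IER2 and NR4A1 also excluded 1.5-fold. The interval of FOS (0.485 to 1.326) reached past 2-fold on the lower side only, and those of ATF3 and NR4A3 did so on both sides.

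Among the Fos partners of AP-1, FOS ran from 75.49 CPM through a median of 266.7 to 489.6 in controls and from 126.5 through 193.5 to 369.8 in restricted animals. Both the lowest (control 7) and the highest (control 1) of the 14 were controls, and the groups overlapped. The ratio of restricted to control was 0.802 (95% interval 0.485 to 1.326), and the adjusted p from edgeR was 1 for each of the 10 genes. FOSB, the close paralogue of FOS, ran from 3.96 through 11.18 to 17.53 CPM in controls and from 3.384 through 8.5 to 20.23 in restricted animals. Its highest animals were restricted 3 and control 1. The ratio was 0.952 (0.535 to 1.695).

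The Jun partners differed less between animals. JUN, the main DNA-binding partner, ran from 120 through 163.1 to 206.4 CPM in controls and from 129.2 through 144.2 to 211.4 in restricted animals, with a ratio of 0.954 (0.7996 to 1.138). Control 4 and restricted 6 stood above the rest and the remaining 12 lay within 120 to 173.4 CPM. JUNB, a weaker activator that can restrain JUN, ran from 15.34 through 30.6 to 45.8 CPM and from 12.65 through 29.56 to 48.68, with a ratio of 0.988 (0.673 to 1.448). Restricted 6, the animal with the most JUN, had the least JUNB.

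EGR1 ran from 18.61 through 35.35 to 81.08 CPM in controls and from 7.459 through 40.05 to 64.18 in restricted animals. Restricted 4 lay well below the other 13, and control 1 was highest. The ratio was 0.997 (0.565 to 1.757). IER2 ran from 6.254 through 9.994 to 11.49 CPM and from 5.249 through 9.453 to 15.56, and only restricted 5 and restricted 7 exceeded 15 CPM. Its ratio was 1.108 (0.829 to 1.481). MYC, the growth regulator, was low in every animal, from 2.712 through 3.52 to 6.823 CPM in controls and from 2.645 through 3.998 to 8.024 in restricted animals, with a ratio of 1.112 (0.769 to 1.608).

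The stress and nuclear receptor genes had the most uneven distributions. ATF3 ran from 5.657 through 17.94 to 104.3 CPM in controls and from 4.301 through 13.73 to 102.8 in restricted animals. Its group means, 28.32 ± 34.54 and 30.94 ± 36.23 (SD, n = 7 each), rested on a few animals: control 4 at 104.3, restricted 6 at 102.8 and restricted 3 at 57.56, with the other 11 at or below 28.62. The ratio was 1.085 (0.394 to 2.988). NR4A1 also had control 4 and restricted 6 on top but a narrow span, from 148.8 through 212 to 338.1 CPM and from 147.8 through 193.8 to 352.4, with a ratio of 0.942 (0.692 to 1.283). NR4A3 ran from 0.3572 through 0.7249 to 7.64 CPM and from 0.5093 through 0.6276 to 14.21. The 4 highest animals were restricted 6 at 14.21, control 2 at 7.64, control 4 at 5.595 and restricted 3 at 2.852, 2 from each group, while the other 10 lay between 0.3572 and 1.26. The NR4A3 ratio of 1.221 had an interval of 0.356 to 4.183.

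Leaving out 1 animal could change the sign of the difference for every gene but FOS and IER2. The range was widest for ATF3 and NR4A3. The log2 difference of ATF3 was 0.12 over all 14, 0.98 without control 4 and -0.59 without restricted 6. That of NR4A3 was 0.29 over all 14, 0.96 without control 2 and -1.16 without restricted 6. Sample titles also end in A or B, letters whose meaning is not given. In the 9 animals with A, which leave out controls 2 and 4 and restricted 1, 2 and 7, the log2 difference was 1.74 for ATF3 and 2.89 for NR4A3. Both had an edgeR p under 0.05 before adjustment, as did 487 of the 12219 genes tested in that subset, and an adjusted p of 0.999.

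**Figure D2:**
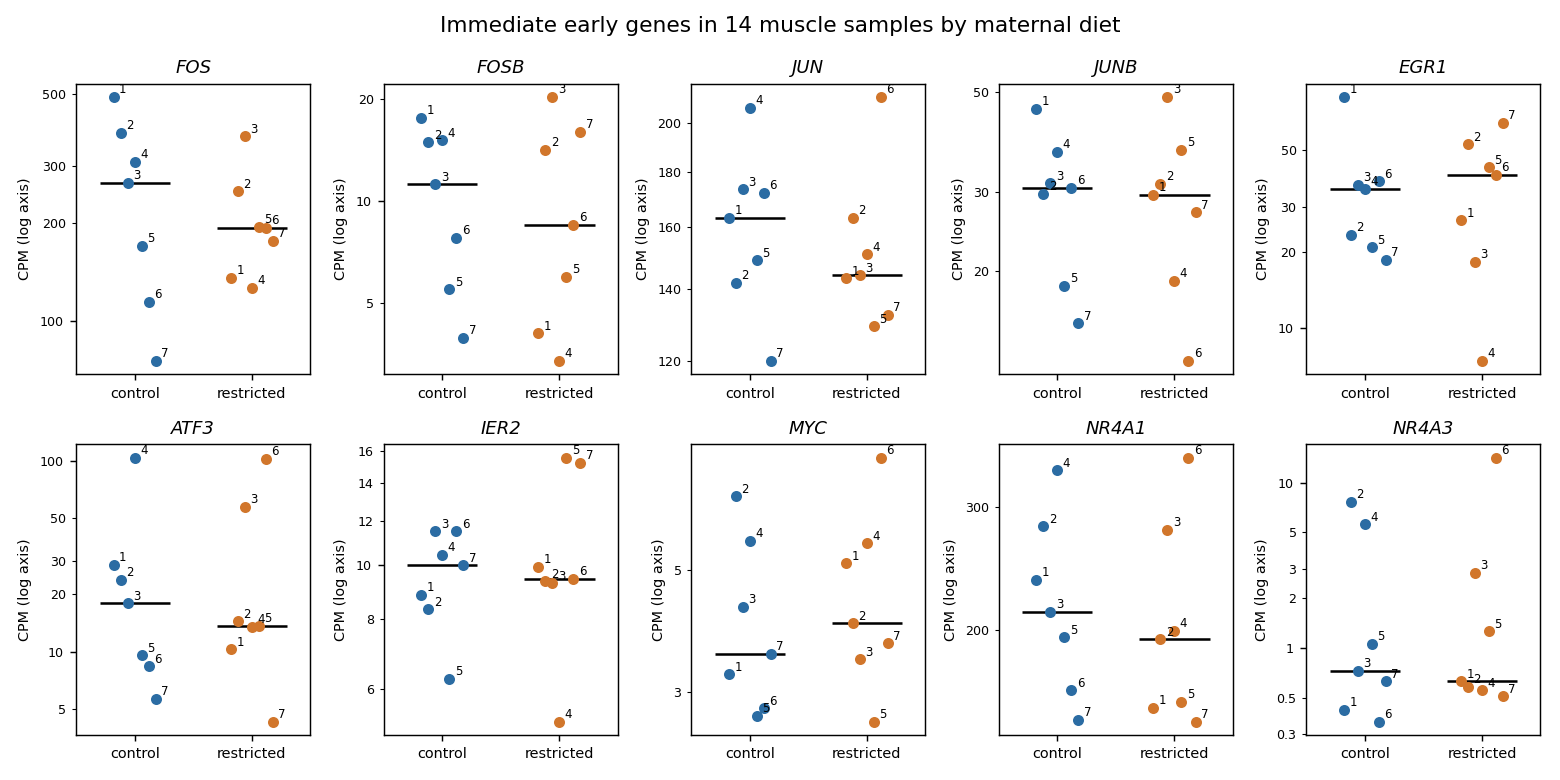
CPM (log axis) of each of the 10 genes in the 7 control and 7 restricted animals; each point is 1 animal with its number, and the black line is the group median. The groups overlap in every panel, and restricted 6 at 14.21 CPM, control 2 at 7.64, control 4 at 5.595 and restricted 3 at 2.852 are the highest in NR4A3.

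**Figure D3:**
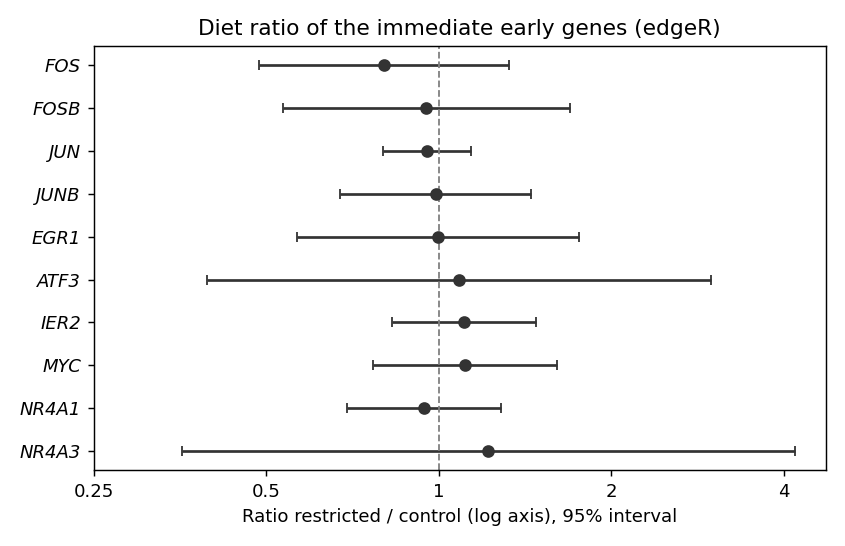
Ratio of restricted to control for each gene (points, log axis) with its 95% interval (bars) from edgeR; the dashed line marks 1. Every interval holds 1; the narrowest is that of JUN (0.7996 to 1.138) and the widest that of NR4A3 (0.356 to 4.183).

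The genes did not vary as a single block over the animals. Of their 45 pairs, 13 (28.9%) had a Pearson r of log2 CPM of at least 0.6, beside 1.59% of all 74255391 pairs of genes tested, and the median was 0.338 beside -0.002. When the 2 animals farthest from the median of the first gene of each pair were left out, 5 of the 13 stayed at 0.6 or more. Without NR4A3, which was high in few animals, 10 of 36 pairs (27.8%) reached 0.6. All correlations were tested by two-sided permutation (100000 resamples, smallest possible p of 1e-05) and adjusted over the 12186 other genes of each member. At that resolution a lone gene at the smallest p has an adjusted p of 0.122, so genes can only be called in sets of at least 3. A member without calls is therefore not shown to lack partners.

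The closest pair was ATF3 and NR4A1. Pearson's r was 0.943 (permutation p = 1e-05, the smallest possible; adjusted p = 0.0406 over the genes of NR4A1 and 0.0609 over those of ATF3) and Spearman's rho was 0.908 (permutation p = 3e-05). The relation held in both diets, with r = 0.949 within controls and 0.955 within restricted animals. It was 0.882 without control 4 and restricted 6, and 0.838 among the 10 animals that had little NR4A3. NR4A3 itself had r = 0.828 with NR4A1 (permutation p = 0.0004, adjusted p = 0.203 over the genes of NR4A1, rho = 0.609), r = 0.779 with ATF3 (rho = 0.609) and r = 0.658 with MYC (rho = 0.415), none past the adjustment. Outside its 4 highest animals, among the other 10, r was -0.105 with NR4A1, 0.04 with ATF3 and -0.269 with MYC. Those 10 were set by the level of NR4A3 itself and had 6 to 20 of its reads each. A low r was therefore likely there and does not show what the full values rest on. Restricted 7 and control 7 had the lowest levels of ATF3 and NR4A1, and restricted 6 and control 4 the highest.

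FOS and FOSB were the second pair, with r = 0.829 (permutation p = 0.00019, adjusted p = 0.503 over the genes of FOS and 0.469 over those of FOSB) and rho = 0.811 (p = 0.00072). It was 0.931 within controls, 0.84 within restricted animals and 0.788 without controls 1 and 7. FOS and JUNB followed with r = 0.659 (permutation p = 0.01077, adjusted p = 0.748), which dropped to 0.465 without the same 2 animals, and FOSB and JUNB with r = 0.616 and 0.455 without control 7 and restricted 4. FOS had r = 0.647 with NR4A1 (rho = 0.644, and r = 0.638 without controls 1 and 7) and r = 0.617 with ATF3 (rho = 0.771, and r = 0.577 without them). None of these passed the adjustment. For FOS the r was near 0 with IER2 (0.007), and it was 0.145 with MYC, 0.328 with JUN and 0.394 with EGR1.

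JUN lay closer to ATF3 (r = 0.718, permutation p = 0.00404, adjusted p = 0.460, rho = 0.578) and NR4A1 (r = 0.705, rho = 0.657) than to FOS. Both values depended on which animals were left out. Without control 4 and restricted 6 they were 0.338 and 0.358. Without control 2 and restricted 3 as well they were 0.599 and 0.708. MYC and NR4A1 (r = 0.61) were at 0.336 without control 2 and restricted 6. EGR1 and IER2 had r = 0.667 (permutation p = 0.01042, adjusted p = 0.759), 0.649 without control 1 and restricted 4, and rho = 0.477. Within controls their r was 0.299 and within restricted animals 0.834. EGR1 also had r = 0.571 with FOSB, at 0.262 without control 7 and restricted 4. With JUNB it had 0.371, at 0.874 within controls and 0.079 within restricted animals. EGR1 and IER2 had values near or below 0 with ATF3 and NR4A1: EGR1 had r = 0.048 with ATF3 and -0.016 with NR4A1, and IER2 had -0.146 and -0.294. JUN and JUNB had r = -0.035 over all animals.

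**Figure D4:**
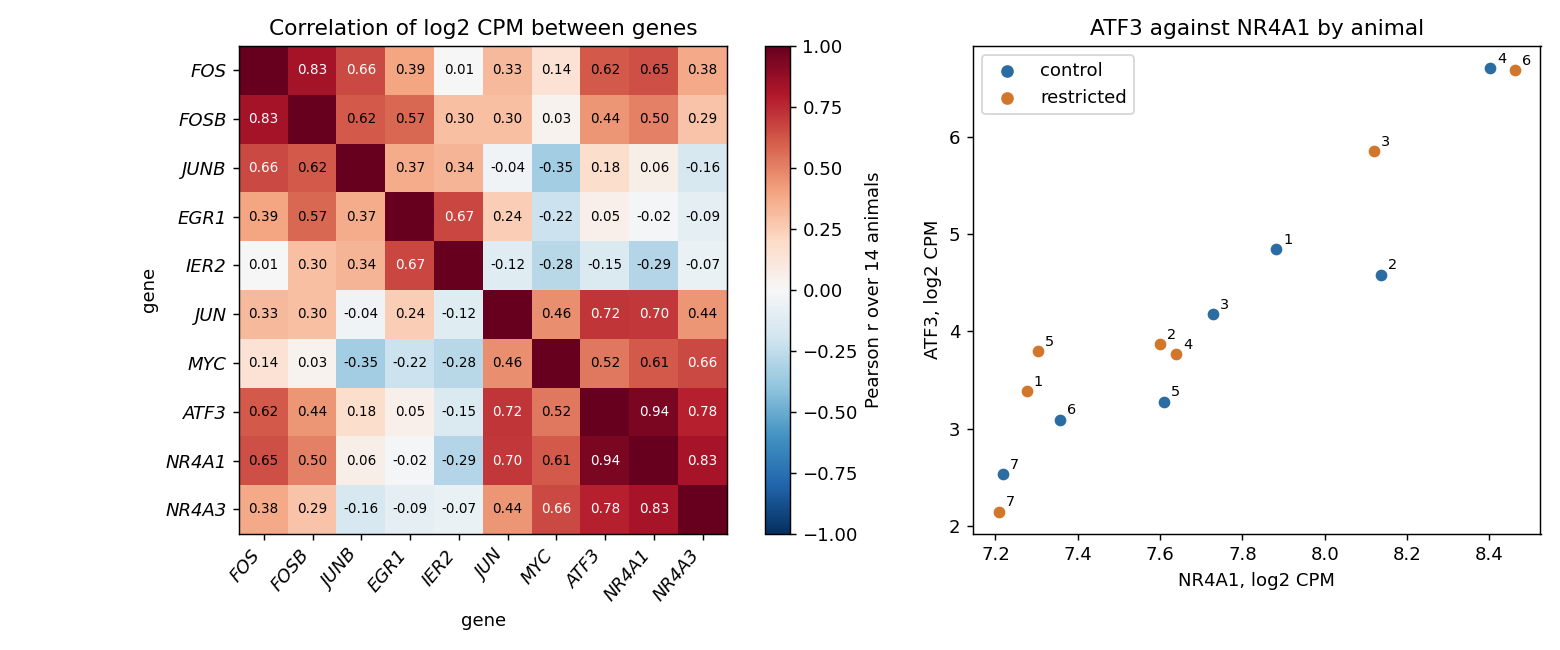
Left, Pearson r of log2 CPM over 14 animals between the 10 genes (colour and number). NR4A3 had few reads outside 4 animals. Right, ATF3 against NR4A1 in log2 CPM, 1 point per animal with its number, blue for control and orange for restricted; r = 0.943, with control 4 and restricted 6 at the upper end.

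Read by animal, some were high or low in most genes and others in a few. Control 4 ranked 1st to 5th in 9 of the 10 genes and 8th in EGR1, and control 3 ranked between 3rd and 7th in all 10. Control 1 had the most FOS and EGR1 and the second most FOSB and JUNB, but ranked 13th of 14 in NR4A3 and 11th in MYC. Restricted 6 had the most JUN, MYC, NR4A1 and NR4A3, the second most ATF3 and the least JUNB, with FOS and FOSB at rank 8. The 4 animals with the most NR4A3 were also the 4 with the most NR4A1, and they were among the 5 with the most ATF3. Restricted 7 ranked 2nd in EGR1 and IER2 and 3rd in FOSB but had the least ATF3 and NR4A1. Control 7 ranked 14th in FOS and JUN and 12th or 13th in FOSB, JUNB, EGR1, ATF3 and NR4A1, but 6th in IER2, 8th in NR4A3 and 9th in MYC. Restricted 4 had the least FOSB, EGR1 and IER2.

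**Figure D5:**
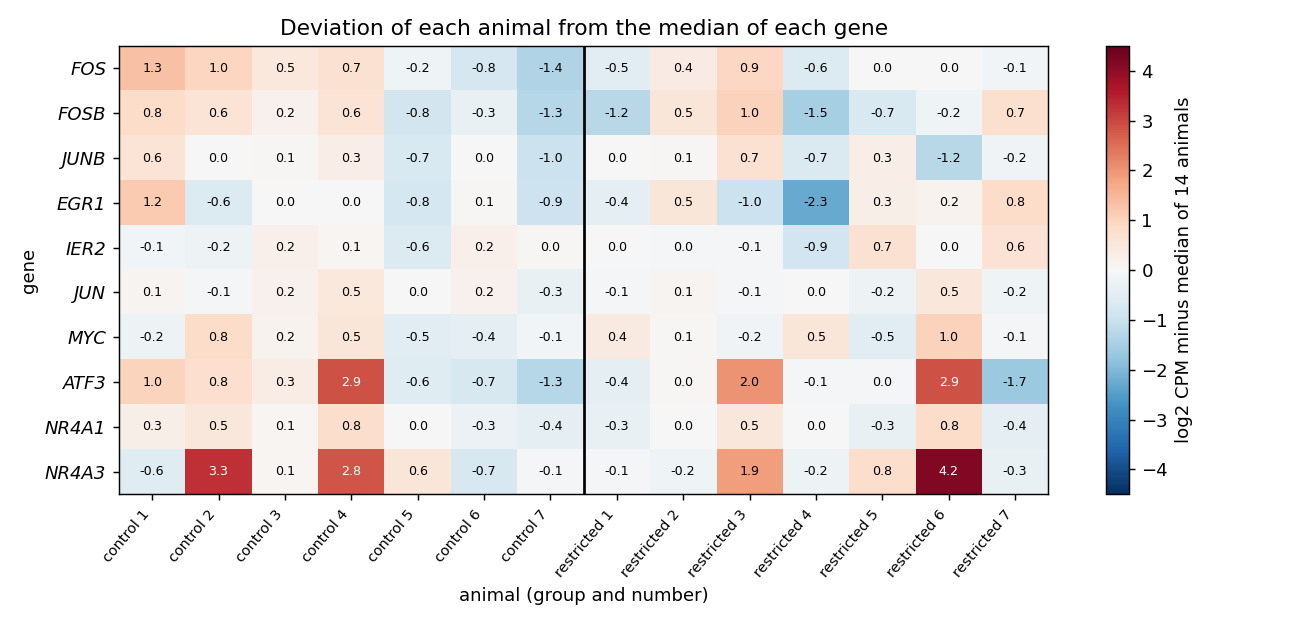
Deviation of log2 CPM from the median of the 14 animals for each gene (rows) and animal (columns, controls left of the line); red is above and blue below the median, with the value in each cell. Restricted 6, control 2, control 4 and restricted 3 are high in NR4A3, while control 1 is highest in FOS and EGR1. Control 3 is above the median in all 10 genes, by small amounts.

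These levels were set beside markers of other cell types and response programmes by correlating each gene with the mean of 14 further lists, the total counts, the library scaling factor and 1 list of other immediate early genes. The neutrophil and blood list had too few tested genes for a mean. Values without 2 animals leave out the 2 farthest from the median of the list mean. Of the 170 relations, 29 had a permutation p under 0.05. This was not counted for other genes, so it does not set these genes apart. After adjustment over all 170, 3 passed. Those 3 were NR4A1, ATF3 and NR4A3 with the other immediate early genes. The value was r = 0.949 for NR4A1 (adjusted p = 0.00085; rho = 0.956, adjusted p = 0.0017) and r = 0.917 for ATF3 (adjusted p = 0.00085; rho = 0.908, adjusted p = 0.00255), and 0.912 and 0.855 without 2 animals each. For NR4A3 it was r = 0.794 (adjusted p = 0.0351) and 0.638 without 2 animals, but rho = 0.587 missed the threshold (adjusted p = 0.248). No cell type list passed. The nearest by p was T and NK cell markers with IER2 (r = 0.662, adjusted p = 0.212, rho = 0.71, and r = 0.64 without 2 animals). Others were smooth muscle and pericyte markers with NR4A1 (r = 0.642, adjusted p = 0.212, rho = 0.684, and r = 0.558 without 2 animals) and ATF3 (r = 0.558, adjusted p = 0.237), endothelial markers with ATF3 (r = 0.604, adjusted p = 0.223, and 0.236 without 2 animals), satellite cell markers with JUN (r = 0.578, adjusted p = 0.223) and ATF3 (r = 0.562, adjusted p = 0.237), and macrophage markers with FOS (r = -0.625, adjusted p = 0.212, rho = -0.525, and r = -0.543 without 2 animals). Glucocorticoid targets had r = 0.589 with JUN and -0.678 with IER2, heat shock genes r = 0.63 with JUN, contraction and exercise genes r = 0.626 with ATF3 and 0.611 with JUN, and total counts r = 0.64 with IER2, with adjusted p between 0.212 and 0.223. Interferon response genes had negative values with ATF3 (r = -0.657, rho = -0.763), FOS (r = -0.633, rho = -0.714) and NR4A1 (r = -0.573, rho = -0.657), with adjusted p between 0.212 and 0.223 by r and 0.108 and 0.197 by rho. Among the 11 animals outside the 3 highest on that list, r was -0.512 for ATF3, -0.654 for FOS and -0.487 for NR4A1. Of those 3, restricted 7 was nonetheless among the 3 highest in EGR1, IER2 and FOSB. Without the 3 animals r was 0.861 for FOS and FOSB and 0.927 for ATF3 and NR4A1. The part of cell mixture, of handling of the tissue, or of depth in these levels was not tested, and in bulk tissue fewer cells of a type and less RNA per cell cannot be told apart.

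A list of 51 other immediate early genes extended the picture. Of these, 49 were in the table and 44 were tested; FOSL1, EGR4, DUSP2, DUSP5 and ARC were too low, FOSL1 at 2 to 10 reads per library. None of the 44 was called between diets and 0 had an unadjusted p under 0.05; 19 were higher in restricted animals, with a median log2 difference of -0.048 beside -0.001 over all genes. DUSP1, the MAPK phosphatase, and KLF10 were the most abundant per length, DUSP1 at 311.8 ± 83.16 CPM in controls and 288.2 ± 71.24 in restricted animals. The number of these 44 with a high r differed between the 10 genes. NR4A1 had 15 of the 44 at r of at least 0.6, beside 2.06% of all genes, and ATF3 had 13, beside 2.13%. MYC had 9, beside 1.54%. JUNB had 5 (1.4% of all genes), FOS had 4 (1.6%) and JUN had 4 (2.36%). FOSB had 2 (1.89%), EGR1 had 1 (1.74%) and IER2 had 0 (1.5%). NR4A3 had 11 (1.65%).

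NR4A1 was the only member with called partners in the whole table: 3 of 12186 genes (0.0246%), all with positive r. Besides ATF3 they were SIK1, a CREB-regulated kinase that limits CREB co-activators, with r = 0.936 (adjusted p = 0.0406, rho = 0.956), and NR4A2, the remaining NR4A receptor, with r = 0.924 (adjusted p = 0.0406, rho = 0.899). Within controls the values were 0.963 for SIK1 and 0.959 for NR4A2, and within restricted animals 0.937 and 0.895. The SIK1 row has no usable symbol in the table and was matched by its gene description. NR4A2 was as variable as ATF3 and did not separate the diets, at 14.26 ± 12.31 CPM in controls and 12.46 ± 15.01 in restricted animals (SD, n = 7 each), with a coefficient of variation of 0.883. SIK1, at 19.1 ± 11.25 and 23.97 ± 29.24 CPM, had 0.6666.

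By median r with the 10 genes, SIK1 (0.577), NR4A2 (0.575), BTG2 (0.567), PPP1R15A (0.544) and JUND (0.528) stood at the top of the 44. BTG2 is an antiproliferative early gene, PPP1R15A restores translation after stress, and JUND is the remaining Jun protein. ZFP36L2 (-0.193), GADD45B (-0.188) and DUSP4 (-0.179) stood at the bottom. None of the other 9 members had a called gene, the smallest adjusted p being 0.0609 for ATF3, 0.122 for FOS and FOSB and 0.163 for IER2.

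The genes most like FOS over the 14 animals, outside the 10, were BOK (r = 0.895, permutation p = 1e-05, adjusted p = 0.122), a member of the BCL2 family, then BTG2 (0.857), USB1 (0.817), TRIM8 and OBSL1 (0.8 each), NSD2 (0.788), NR4A2 (0.784), SLC35E2 (0.776), TRPC2 (0.771) and ARHGEF28 (0.768). Of these, BTG2 and NR4A2 are themselves early response genes. The most opposed were PGBD1 (-0.836), C21H15orf40 (-0.828) and ANKRA2 (-0.824). None passed the adjustment.

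Upstream of these genes, 31 kinases and factors of the MAPK, serum response factor, calcium and CREB routes were tested. None was called between diets; CAMK2D and MEF2C had an unadjusted p under 0.05, both with higher levels in restricted animals (CAMK2D ratio 1.15, 95% interval 1.035 to 1.277; MEF2C 1.138, 1 to 1.295), and the median variation was 0.126, below the all-gene median. CAMK2D and CAMK2A, calcium-activated kinases, were the most abundant. Glucocorticoid targets (16 tested, led by GLUL and DDIT4), heat shock genes (15, led by CRYAB and HSPA8), contraction and exercise genes (14, led by ANKRD1 and CSRP3) and hypoxia genes (13, led by LDHA and BNIP3) had 0 called genes each. At an unadjusted p under 0.05 there were 3 higher and 2 lower among the 16 glucocorticoid targets and 0 in the other 3 lists, beside 4.25% of all genes tested. The 9 cell type marker lists and the interferon list also had 0 called genes each. At that unadjusted p, 1 smooth muscle and pericyte marker was lower and 1 satellite cell marker higher. The most abundant genes per length of the marker lists were EGFL7 and EMCN for endothelial cells, DES and RGS5 for smooth muscle and pericytes, DCN and GSN for fibroblasts, AIF1 and C1QB for macrophages, CD3E and CD3D for T and NK cells, CD36 and FABP4 for adipocytes, HBB and PTPRC for blood, DES and MYOD1 for satellite cells, and ACTA1 and MYLPF for muscle fibres. DES is also made by muscle fibres and stands on 2 of these lists.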

How the data were processed

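The authors deposited a table of unnormalized whole-number read counts for each gene. Per the submitters' processing notes, FastQC, HISAT2, featureCounts, edgeR and the build ARS-UCD1.2 were used; the sources used here give no version, annotation release or strand setting, so antisense or overlapping partners cannot be separated. Gene length in bases is given per the file headers (the other deposited column used). Groups came from the treatment label. Counts were fitted in R 4.3.3 with edgeR 4.0.16: filterByExpr (minimum count 10, minimum total 15), TMM scaling, quasi-likelihood F test over 12187 genes without covariates, Benjamini-Hochberg adjustment. DESeq2 1.42.0 and limma 3.58.1 voom were alternatives. Correlations used log2 CPM (prior count 2), with SciPy 1.17.1 and NumPy 2.4.6 in Python 3.11.15. Both tests were tested on simulated data. Any 2 libraries differed by a chi-square of at least 12.8 per degree of freedom, so none was a copy. Libraries held 13631018 to 17325779 counts, and intervals are 95%.

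The members and the 17 lists were chosen with earlier results of these data known. Named genes are the 10 members; the 2 most abundant genes of each list except the interferon list, for which they are not reported here; the 10 genes most and 3 least like FOS; and, of other immediate early genes, the 5 highest and 3 lowest in median r. CAMK2D, MEF2C, SIK1 and NR4A2 beside NR4A1, CXCR2, FOSL1 and the animals singled out were chosen after their values were seen. No sequences or coordinates are given, as no genome or sequence table of this build was used here. The labels give no shared replicate numbers, and 0 per-sample columns were left unmapped.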

Additional observations from a re-analysis of the deposited data

How the results depend on the processing

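No paired analysis was possible because the labels give no shared replicate numbers, and the numbers used here follow the order of the samples. Over all genes the count of calls between diets was 0 in each setting run except DESeq2 (1 gene, 528 at an unadjusted p under 0.05) and the 9 animals whose titles end in A (1 gene, 487 unadjusted), and leaving out any 1 animal gave 0; none of the 10 genes was called in any. The cause was not tested. Log2 differences that changed sign, none past the threshold, were JUNB 0.0187 with voom; EGR1 0.0015 without the filter; with the first letter of the title as a covariate FOSB 0.0138, JUNB 0.0486, EGR1 0.1027 and ATF3 -0.0303; and in titles ending in A FOSB 0.0547, JUN 0.0304, JUNB 0.0559 and NR4A1 0.3693. Leaving out 1 animal at a time, the log2 difference ran from -0.52 to -0.08 for FOS, -0.32 to 0.0818 for FOSB, -0.16 to 0.0022 for JUN, -0.19 to 0.12 for JUNB, -0.21 to 0.32 for EGR1, -0.59 to 0.98 for ATF3, 0.03 to 0.26 for IER2, -0.03 to 0.32 for MYC, -0.25 to 0.0398 for NR4A1 and -1.16 to 0.96 for NR4A3. The r of FOS with IER2 changed sign as rho (-0.182), within controls (-0.155), without control 7, restricted 4 and restricted 7 (-0.197) and on leaving out 1 animal (-0.202 to 0.065). That with MYC did so within restricted animals (-0.409), in titles ending in A (-0.041) and without the 4 animals high in NR4A3 (-0.111), and that with NR4A3 without those 4 (-0.02). Over all 45 pairs, NR4A3 included, the median r was 0.338 and 13 were at 0.6 or more; the number was 21 within controls and 9 to 15 on leaving out 1 animal (9 without control 7), and the median ran from 0.175 to 0.564 over 25 settings. The r of ATF3 with NR4A1 ran from 0.838 to 0.963 over its 25 settings. Leaving out the interferon-high and the NR4A3-high animals was chosen after seeing the data. With 7 animals a group, the 95% intervals leave a 2-fold difference possible for FOS, ATF3 and NR4A3, and NR4A3 and MYC rest on few reads. The meaning of the title letters is not given, and letter and diet are only partly separable.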

Other observations

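The gene groups nearest to ATF3, NR4A1 and JUNB were listed after their values were seen. With ATF3 the highest r belonged to NR4A2 (0.924), SEC23B (0.898), SIK1 (0.883) and KLF4 (0.882), each with an adjusted p of 0.0609 over 12186 genes. With NR4A1, beyond the called genes, it belonged to OTUD1 (0.886, adjusted p = 0.0609), a deubiquitinase, then COQ10B (0.867), URB2 (0.865) and KLF4 (0.861). CDK11B (0.854), TRIB1 (0.847), FGFR3 (0.842) and CSRNP1 (0.841) followed. BOLA-DQA5, an MHC class II gene, was the most opposed to both, with -0.887 for NR4A1 and -0.859 for ATF3 (adjusted p = 0.0975 and 0.0812). With JUNB the highest values belonged to HOXB4 (0.856), REEP2 (0.831), RNF144A (0.826), SOX13 (0.822) and SYT2 (0.809). CCN1 and the endothelial junction gene CLDN5 (0.8 each), APLNR (0.791), MAFK (0.788) and DUSP1 (0.785) followed. The most opposed to JUNB were P4HA3 (-0.844), GADD45B (-0.83) and BMS1 (-0.8). All of these had an adjusted p of 0.68 or above.

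JUN and JUNB, near 0 together over all 14 animals, had r = 0.734 within controls and -0.737 within restricted animals, and JUNB with MYC had 0.287 and -0.872. Restricted 6 had the most JUN and MYC and the least JUNB. Over all animals but control 4 and restricted 6, JUN and JUNB had r = 0.348. Over all but control 7 and restricted 6, JUNB and MYC had -0.148. Both pairs were picked out of 45 after their values were seen, and the difference between diets was not tested. CREM, a cyclic AMP response factor with an early inducible form, had a coefficient of variation of 0.6206 and a 15.07-fold span between animals, at 5.668 ± 3.052 CPM in controls and 7.471 ± 8.154 in restricted animals (SD, n = 7 each).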
